A study of Mus musculus with 6 samples.

Results

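The genes described here are named for the proteins of the cytosolic ribosome. They were taken by symbol (Rpl, Rps or Rplp followed by a number) from the hippocampal RNA sequencing counts of Ube3am-/p+ mice and WT (Ube3am+/p+) mice. Rps4l and Rpl32l carry such a symbol but are annotated without a coding sequence. The symbols matched 84 of the 25239 genes listed, 52 of the large and 32 of the small subunit, and 76 of them (45 large, 31 small) passed edgeR's filter on low counts. The gene family itself was chosen by its values in this same comparison of genotypes, which were known beforehand, so the differences between the genotypes describe these 6 mice. Calls by edgeR are counted below as part of that description and support nothing about the family. All mice were males on the C57BL/6 background, aged 6 to 8 weeks, with 3 WT mice and 3 Ube3am-/p+ mice and 1 library per mouse. The Ube3am-/p+ mouse carries a non-functional maternal and an intact paternal copy of Ube3a in all of its cells, and serves as a model of Angelman syndrome. The paternal copy is silent in mature neurons but read in glia, so whole hippocampus keeps some Ube3a RNA.

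The cytosolic ribosome makes the proteins of the cell from a small subunit, which reads the mRNA, and a large subunit, which joins the amino acids. Nearly all of its proteins are needed in equal numbers, and surplus copies of single proteins are broken down. Most of their mRNAs begin with a run of pyrimidines, the terminal oligopyrimidine (TOP) tract, through which growth signals control how fast they are translated. In neurons part of these mRNAs lies in axons and dendrites.

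The targeted gene was examined first. Ube3a measured 104, 141 and 151 CPM in WT mice 1, 2 and 3, and 96.8, 82.9 and 80.6 CPM in Ube3am-/p+ mice 1, 2 and 3. CPM, the usual scaled read count, is the count of a gene relative to the total count on genes of its library. Each Ube3am-/p+ mouse lay below each WT mouse, although the mice numbered 1 differed by only -0.10 on the log2 scale. Its log2 fold change of -0.58 had a standard error of 0.12 (edgeR, adjusted p = 0.0363). Once the libraries were corrected for GC content and for the length of the transcripts, it was -0.17 with a standard error of 0.08 (edgeR, adjusted p = 0.358).

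The libraries held 7293272 to 8675252 counts on genes in WT mice and 8871052 to 11314409 in Ube3am-/p+ mice. They also differed in a way that moved with genotype in the mice numbered 2 and 3 and not in those numbered 1. Over 14201 genes, the deviation of a library from the average library was ranked against GC content. Spearman's rho for WT mice 1, 2 and 3 was 0.0431, -0.519 and -0.579, and for Ube3am-/p+ mice 1, 2 and 3 it was 0.0553, 0.534 and 0.541. Against transcript length rho was 0.0653, 0.226 and 0.179 for WT mice, and 0.0821, -0.186 and -0.342 for Ube3am-/p+ mice. In both measures the mice numbered 1 were close to one another and fell between the remaining mice. Genotype and this difference cannot be told apart in mice 2 and 3, so the ribosomal protein genes are given below also for the mice numbered 1 alone and after the correction.

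Marker genes of the labelled tissue were present, with all 7 general neuronal and all 7 hippocampal neuron markers passing the filter. The summed level of 7 oligodendrocyte markers was 8304 to 8428 CPM in WT mice and 6927 to 7923 CPM in Ube3am-/p+ mice, that of 6 astrocyte markers 5133 to 5550 against 4574 to 4811 CPM, that of 7 microglia markers 406 to 439 against 373 to 393 CPM, and that of 6 endothelial markers 256 to 265 against 224 to 240 CPM. In each of these lists the sum was lower in every Ube3am-/p+ mouse than in every WT mouse. No gene of these lists was called different between the genotypes (edgeR, as defined below). Of all genes tested only 1.02% were called higher and 0.990% lower, so the lack of calls among so few genes says little. Neuronal markers summed to 5605 to 5713 CPM in WT mice and 5376 to 5697 CPM in Ube3am-/p+ mice. Hippocampal neuron markers summed to 852 to 927 and 745 to 862 CPM. In both of these lists the groups overlapped. All 9 choroid plexus markers had a fold change above 0, but their sum spread from 106 to 2233 CPM in WT mice and from 111 to 2315 CPM in Ube3am-/p+ mice, so the groups overlapped. The 8 meningeal markers, 1 of them called higher, summed to 90.4 to 148 and 95.8 to 177 CPM. Of the 5 red blood cell markers, Hba-a1, Hba-a2, Hbb-bs and Hbb-bt had no count in any library. Whether the mix of cells has a part in the ribosomal values was not tested, and in whole tissue fewer cells of a type and less RNA per cell cannot be told apart.

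Ribosomal protein genes together held 0.979%, 0.951% and 0.968% of the gene counts in WT mice 1, 2 and 3. They held 1.028%, 1.148% and 1.146% in Ube3am-/p+ mice 1, 2 and 3. The share was higher in every Ube3am-/p+ mouse than in every WT mouse, and the groups did not overlap, but Ube3am-/p+ mouse 1 lay nearer to the WT mice than to the other Ube3am-/p+ mice. Large subunit genes accounted for 0.593% to 0.621% of the counts in WT mice and 0.647% to 0.718% in Ube3am-/p+ mice, and small subunit genes for 0.358% to 0.367% and 0.381% to 0.435%. Reads with more than 1 alignment, which were not counted on genes, were 4.15%, 5.61% and 5.77% of a library's reads for WT mice, and 4.06%, 3.71% and 3.76% for Ube3am-/p+ mice. They are of interest here because many ribosomal protein genes have processed copies elsewhere in the genome, and the share was lower in every Ube3am-/p+ mouse.

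**Figure D1:**
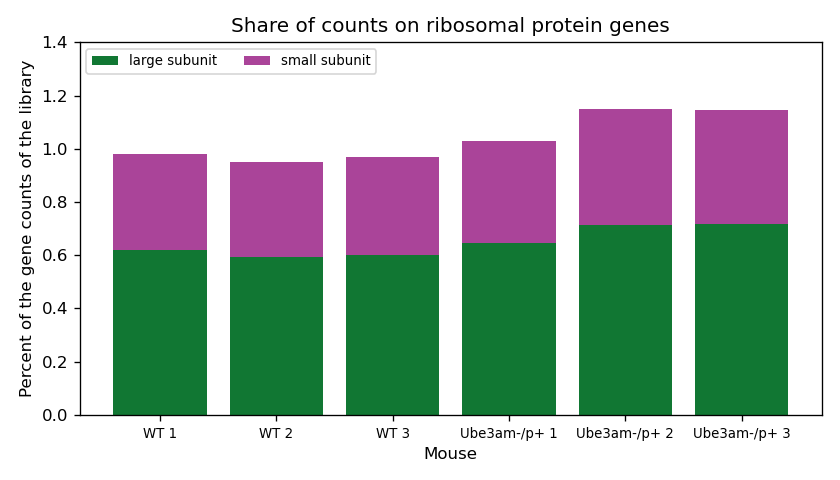
Share of the gene counts of each library (y axis, percent) that fell on ribosomal protein genes, by mouse (x axis), with the large subunit below and the small subunit above in each bar. The bars of the 3 WT mice end between 0.951% and 0.979%, Ube3am-/p+ mouse 1 ends at 1.028%, and Ube3am-/p+ mice 2 and 3 end at 1.148% and 1.146%.

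Gene by gene, the values spread around a median log2 fold change of 0.23 over the 76 genes (64 above 0), against a median of 0.00 over all 14445 genes tested. The range ran from -0.14 for Rpl7 to 1.2 for Rps28. A gene was called different where edgeR's quasi-likelihood test gave a fold change above 1.2 and p, adjusted by Benjamini-Hochberg over all genes tested, was below 0.05. By this rule 10 ribosomal protein genes (13.2%) were called higher in Ube3am-/p+ mice, where 1.02% of all genes tested were. None was called lower, where 0.990% of all genes were. Before adjustment of p, and with no fold threshold, 39 were higher (51.3%, against 12.2% of all genes) and none was lower (12.4% of all genes). With the fold threshold, 33 were higher before adjustment (43.4%, against 9.78% of all genes) and none was lower (9.83% of all genes). DESeq2 called 28 higher (36.8%) and none lower. Of the 10689 genes to which it gave an adjusted p, 4.58% were called higher and 4.15% lower. The number of calls rested on single mice, among all genes as among these. Without WT mouse 2, WT mouse 3 or Ube3am-/p+ mouse 2 no gene at all was called, and without Ube3am-/p+ mouse 3 there were 2 calls, neither of them a ribosomal protein gene. Without WT mouse 1 the test called 31 ribosomal protein genes higher (40.8%) among 2582 calls over all genes (8.96% of all genes higher). Without Ube3am-/p+ mouse 1 it called 32 higher (42.1%) among 1816 calls (6.53% of all genes higher).

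Counted by the mice alone, all 3 Ube3am-/p+ mice lay above all 3 WT mice in 27 of the 76 genes (35.5%), where this held for 10.8% of all genes tested. They lay below all WT mice in 2 genes (2.63%), Rplp0 and Rps15a, where 14.2% of all genes did. Ube3am-/p+ mice 2 and 3 were both above all WT mice in 53 genes (69.7%, against 21.6% of all genes), and Ube3am-/p+ mouse 1 was above all WT mice in 29 (38.2%, against 23.9% of all genes). Set against the average of the 6 mice, the 76 genes had a median log2 deviation of -0.08, -0.10 and -0.09 for WT mice 1, 2 and 3, and of -0.01, 0.16 and 0.16 for Ube3am-/p+ mice 1, 2 and 3.

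**Figure D2:**
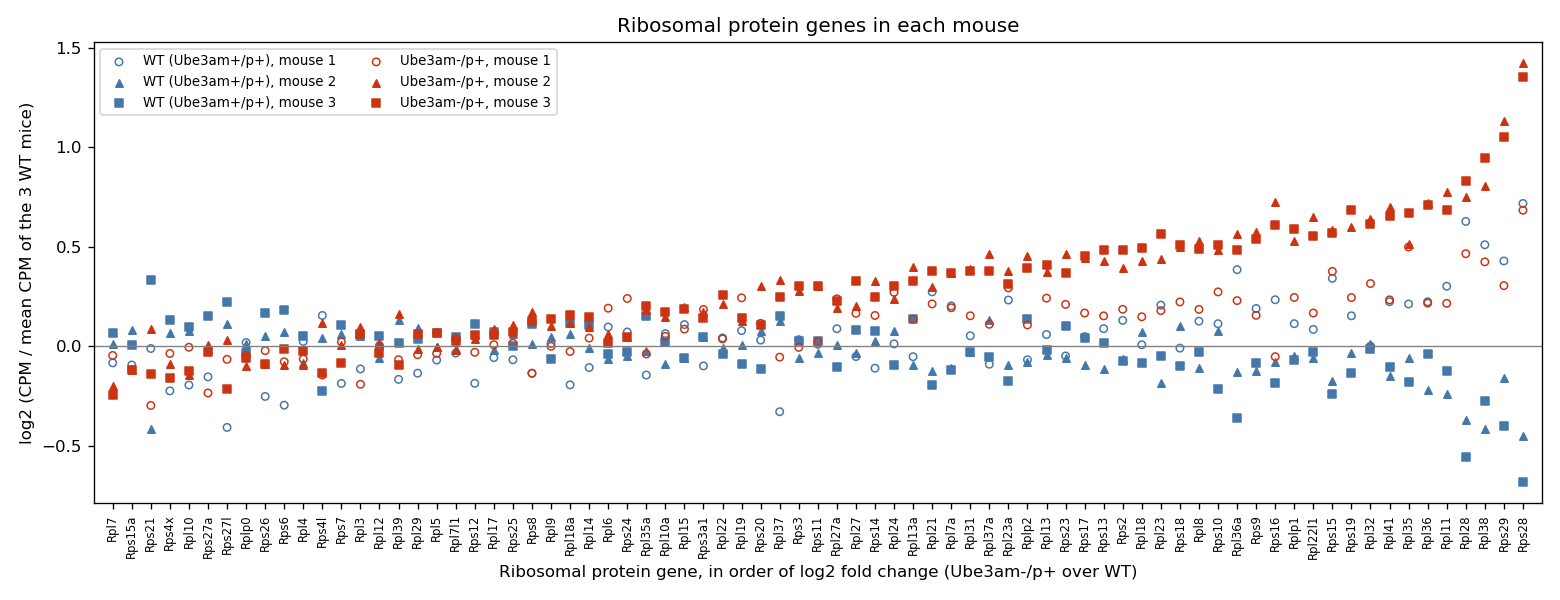
Level of 75 of the 76 ribosomal protein genes in each mouse, as log2 of its CPM over the mean CPM of the 3 WT mice (y axis), with genes in order of fold change (x axis), WT mice in blue, Ube3am-/p+ mice in red and the mice numbered 1 as open circles. At the right end, Rps28, Rps29, Rpl38 and Rpl28 have WT mouse 1 next to Ube3am-/p+ mouse 1 and far above WT mice 2 and 3, and at the left end Rpl7 has Ube3am-/p+ mice 2 and 3 below the WT mice.

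The 10 genes called higher came from both subunits (6 large, 4 small). Rpl35, a protein at the mouth of the tunnel through which the growing chain leaves the ribosome, measured 65.7, 54.4 and 50 CPM in WT mice and 80.1, 81.0 and 90.2 CPM in Ube3am-/p+ mice. The groups were clearly apart, with a log2 fold change of 0.58 (standard error 0.11), and the mice numbered 1 alone differed by 0.29. Rpl32, a large subunit protein, measured 69.4, 70.0 and 68.7 CPM in WT mice and 86.3, 108 and 106 CPM in Ube3am-/p+ mice. Its WT mice were the closest to each other of all 76 genes (coefficient of variation 0.921%), and its log2 fold change of 0.55 (standard error 0.10) came with a difference of 0.32 between the mice numbered 1. Rpl41, the smallest of the proteins at 25 residues, measured 153, 118 and 122 CPM in WT mice and 154, 213 and 206 CPM in Ube3am-/p+ mice. Here the mice numbered 1 were nearly equal (0.02 on the log2 scale), and the log2 fold change of 0.57 (standard error 0.13) rested on mice 2 and 3.

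Rplp1, a protein of the stalk that recruits elongation factors, measured 251, 224 and 221 CPM in WT mice and 275, 335 and 349 CPM in Ube3am-/p+ mice (log2 fold change 0.48, standard error 0.10). Rpl8, which lies close to the peptidyl transferase centre, measured 167, 142 and 150 against 174, 221 and 215 CPM (0.43, standard error 0.10). Rpl13 measured 215, 200 and 204 against 244, 267 and 274 CPM (0.36, standard error 0.08). In all of these the groups were separate, and in Rplp1 and Rpl8 mouse 1 was the lowest Ube3am-/p+ mouse and the highest WT mouse. The same order held in Rpl13, with a wider gap between the mice numbered 1 (0.18 on the log2 scale, against 0.13 in Rplp1 and 0.06 in Rpl8).

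Among small subunit genes, Rps19, the gene most often mutated in Diamond-Blackfan anaemia, measured 74.8, 65.7 and 61.3 CPM in WT mice and 79.7, 102 and 108 CPM in Ube3am-/p+ mice (log2 fold change 0.54, standard error 0.12). Rps10, of the beak of the subunit, measured 91.3, 89.1 and 72.8 against 102, 118 and 120 CPM (0.45, standard error 0.11). Both had separate groups with Ube3am-/p+ mouse 1 the lowest of its genotype. Rps18, of the head of the subunit, measured 89.4, 96.4 and 84.1 against 105, 127 and 128 CPM (0.43, standard error 0.10). Rps23, near the decoding centre, measured 117, 116 and 130 against 140, 167 and 156 CPM (0.37, standard error 0.09). In Rps18 and Rps23 the mice numbered 1 alone differed by 0.23 and 0.27 on the log2 scale.

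The 6 genes with the highest fold changes, Rps28, Rps29, Rpl38, Rpl28, Rpl11 and Rpl36, were not among those called. Rps28, a protein on the path of the mRNA, measured 47.4, 21.1 and 18.0 CPM in WT mice and 46.3, 77.2 and 73.7 CPM in Ube3am-/p+ mice. Its log2 fold change was 1.2 with a standard error of 0.47, and its WT mice varied most of all 76 genes (coefficient of variation 56%). The groups overlapped, because WT mouse 1 and Ube3am-/p+ mouse 1 were alike. Rps29, a zinc-binding protein of the small subunit, showed the same order with 93.5, 62.2 and 52.7 against 85.8, 152 and 144 CPM (0.89, standard error 0.33). Rpl38, known in the mouse for its part in the translation of Hox mRNAs, measured 81.4, 42.9 and 47.2 against 76.7, 100 and 110 CPM (0.76, standard error 0.29). Rpl28 measured 113, 56.7 and 49.8 against 101, 123 and 130 CPM (0.70, standard error 0.37). In these 4 genes WT mouse 1 exceeded Ube3am-/p+ mouse 1. Rpl36, of the large subunit, measured 63.8, 47.0 and 53.1 against 63.5, 89.9 and 89.3 CPM (0.59, standard error 0.14), and here too the mice numbered 1 were nearly equal.

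At the other end, the 6 lowest log2 fold changes were those of Rpl7 (-0.14), Rps15a (-0.10), Rps4x (-0.08), Rps21 (-0.08), Rpl10 (-0.07) and Rps27a (-0.06), with standard errors of 0.08 to 0.17. Rpl7, of the large subunit, measured 191, 204 and 212 CPM in WT mice and 196, 176 and 171 CPM in Ube3am-/p+ mice, so the groups overlapped through the mice numbered 1. Rps15a measured 124, 140 and 133 against 122, 122 and 122 CPM, the smallest spread of any ribosomal protein gene within Ube3am-/p+ mice (coefficient of variation 0.153%). Its groups did not overlap. Over the 17 settings tried its log2 fold change ran from -0.14 to 0.05, and it was above 0 only after the correction for GC content and length. The corrected value rests on the annotated transcript used, which has 5179 bases with 390 of them coding. Rps21 measured 96.2, 72.6 and 122 against 78.9, 103 and 88.0 CPM, with WT mice on both sides of the Ube3am-/p+ mice. Rpl10, which joins the large subunit late in its assembly, measured 178, 215 and 218 against 203, 184 and 187 CPM. Rps4x (151, 185 and 193 against 172, 166 and 158 CPM) and Rps27a (110, 121 and 136 against 104, 123 and 120 CPM), which is made as a fusion with ubiquitin, also overlapped between the genotypes.

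The 3 stalk genes differed among themselves. Rplp0, the base of the stalk, measured 204, 203 and 197 CPM in WT mice and 195, 188 and 193 CPM in Ube3am-/p+ mice, without overlap but with a log2 fold change of only -0.05 (standard error 0.08). Rplp2, the partner of Rplp1, measured 80.8, 80.2 and 93.0 against 91.2, 116 and 111 CPM (0.35, standard error 0.10), with WT mouse 3 above Ube3am-/p+ mouse 1. The 5S particle, which carries the 5S rRNA and can bind the p53 regulator Mdm2, holds Rpl5 and Rpl11. Rpl5 measured 170, 178 and 187 against 174, 178 and 187 CPM (0.03, standard error 0.08), nearly the same values in both genotypes. Rpl11 measured 121, 83.3 and 90.2 against 114, 168 and 158 CPM (0.60, standard error 0.17), and its groups overlapped through the mice numbered 1.

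Lists of genes by their place in the ribosome overlapped in their values. Of 7 genes kept around the exit tunnel, 6 had a log2 fold change above 0 with a median of 0.19 and a range of -0.04 to 0.58, and 1 was called higher. Of 7 genes along the mRNA path of the small subunit, 6 were above 0 with a median of 0.22 and a range of -0.04 to 1.2, and 1 was called. The 3 beak genes had a median of 0.05 and a range of -0.06 to 0.45, with 1 called. Of 17 kept genes that are mutated in Diamond-Blackfan anaemia, 15 were above 0 with a median of 0.33, and 3 were called higher. None of these lists held a gene called lower. Of all genes tested, 1.02% were called higher and 0.990% lower, so calls in lists this small are not read as results about the lists.

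Further proteins of the ribosome lie outside the symbol pattern. Rpsa, a small subunit protein also known as a laminin receptor, measured 314, 381 and 398 CPM in WT mice and 327, 288 and 294 CPM in Ube3am-/p+ mice (log2 fold change -0.25, standard error 0.10), a lower value than any of the 76 genes had. Fau measured 107, 104 and 112 against 105, 139 and 142 CPM (0.28, standard error 0.11). The groups overlapped in both Rpsa and Fau. Rack1, a scaffold protein bound to the small subunit, measured 136, 133 and 147 against 149, 143 and 135 CPM (0.06, standard error 0.08).

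Other genes of the translation apparatus were set beside them. The 78 mitochondrial ribosomal protein genes are encoded in the nucleus and not part of the cytosolic ribosome. Of these, 62 had a log2 fold change above 0, with a median of 0.15, and 1 was called higher. All 3 Ube3am-/p+ mice lay above all WT mice in 19 of them and below in 2, where 10.8% and 14.2% of all genes did. Of 27 other genes whose mRNAs carry a TOP tract, 16 were above 0 with a median of 0.05 and 1 called higher, and Rack1, Rpsa and Fau belong to this list. Of 64 initiation and elongation factor genes kept, 37 were above 0 with a median of 0.02, 1 called higher and 1 called lower. Of all genes tested, 1.02% were called higher and 0.990% lower, so these single calls are not read as results about the lists.

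The large and the small subunit were compared within each library, where the scaling of the library has no part. The log2 ratio of the summed large to the summed small subunit counts was 0.795, 0.729 and 0.714 for WT mice 1, 2 and 3, against 0.764, 0.711 and 0.748 for Ube3am-/p+ mice 1, 2 and 3. The mean was 0.746 ± 0.043 (SD, n = 3) in WT mice and 0.741 ± 0.0267 (SD, n = 3) in Ube3am-/p+ mice. The difference of -0.00535 was smaller than the spread within either genotype, and the groups overlapped fully. The median log2 fold change was 0.25 over the large subunit genes (41 of 45 above 0) and 0.20 over the small subunit genes (23 of 31 above 0).

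Paralogs, genes of related sequence, were paired by their symbols, and 4 pairs had both genes above the filter. A shared symbol does not show that both genes make a protein of the mature ribosome. Rpl22l1, whose protein can take the place of Rpl22, was counted 203, 187 and 161 times in WT mice, and 224, 399 and 348 times in Ube3am-/p+ mice. Its share of the counts of both genes was 20.7%, 19.6% and 20.3% in WT mice and 21.7%, 25.6% and 23.9% in Ube3am-/p+ mice, 3.5 percentage points higher on average and without overlap. Rpl22l1 itself had a log2 fold change of 0.49 (standard error 0.13) and Rpl22 one of 0.19 (standard error 0.09). The share of Rpl7l1, an Rpl7-like gene, was 15.9%, 15.2% and 15.2% in WT mice and 16.2%, 17.1% and 18.0% in Ube3am-/p+ mice, again without overlap. Here it was Rpl7 that was lower (-0.14), while Rpl7l1 was nearly level between the genotypes (0.03, standard error 0.10).

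The third of the pairs, Rpl36al with Rpl36a, went the other way, with Rpl36al at 34.5%, 34.7% and 39.8% in WT mice and 33.2%, 30.3% and 33.0% in Ube3am-/p+ mice. Both genes had a log2 fold change above 0, 0.20 (standard error 0.14) for Rpl36al and 0.45 (standard error 0.17) for Rpl36a. Rps4l, a copy of Rps4x annotated without a coding sequence, had 11.8%, 9.20% and 7.48% in WT mice and 8.72%, 10.6% and 9.52% in Ube3am-/p+ mice, with full overlap. In the other pairs 1 gene held nearly all counts. The muscle paralog Rpl3l had 18 counts over all libraries against 20686 for Rpl3, and the testis paralogs Rpl10l and Rpl39l had 0 and 4 against 10817 and 3334 for Rpl10 and Rpl39.

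**Figure D3:**
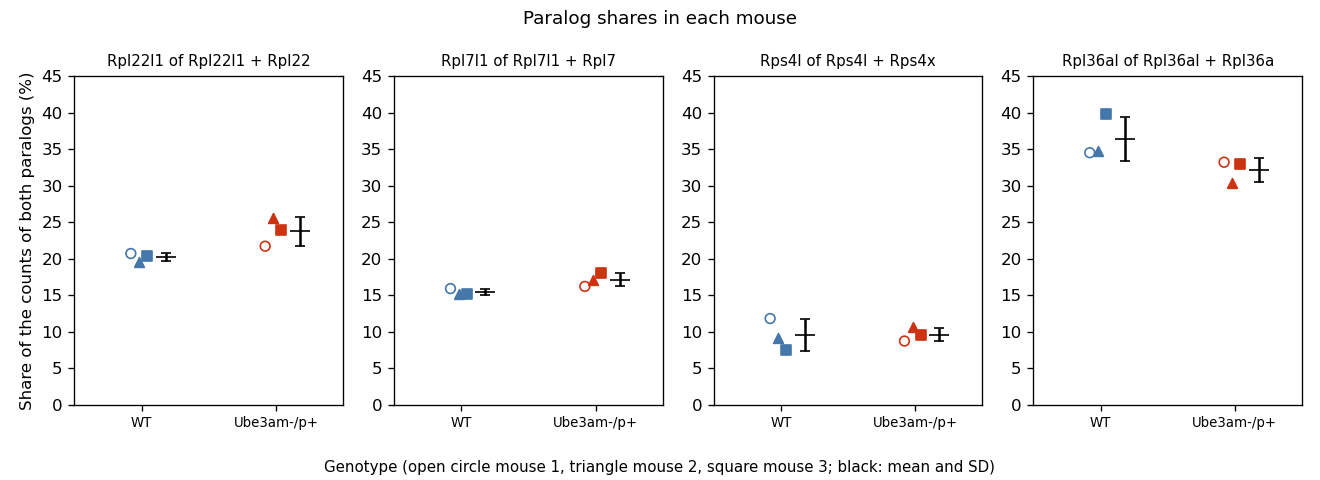
Share of the minor gene in the counts of both paralogs (y axis, percent) in each mouse, by genotype (x axis), with the mean and SD of each genotype in black. The shares of Rpl22l1 and Rpl7l1 lie higher and that of Rpl36al lower in all 3 Ube3am-/p+ mice than in all 3 WT mice, and the shares of Rps4l overlap.

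Rps27 and Rps27l were the exception to the usual order. The common gene Rps27 had 29 counts in all, and the paralog Rps27l 559, at 7.89, 11.3 and 12.2 CPM in WT mice and 10, 10.7 and 9.03 CPM in Ube3am-/p+ mice. Of the 50-base windows of the Rps27 transcript, 98.6% also occur in other annotated genes. The share was 85.4% and 93.3% in Rpl10 and Rpl9, which passed the filter. The other genes below the filter were Rpl26 with 0 counts, Rpl30 with 7, Rpl34 with 19 and Rpl32l with 12 over the 6 libraries. Rpl26, Rpl30, Rpl34 and Rps27 belong to the cytosolic ribosome of all cells, so their low counts are not read as absence. Rpl26, Rpl30 and Rpl34 shared 61.0%, 29.7% and 37.9% of their windows with other genes, within the range of the genes kept. What kept the counts of these genes and of Rps27 low was not tested. For the 75 kept genes with a coding sequence the share of windows found in another gene had a median of 48.4% and was highest for Rpl9, and 33 genes shared at least 50% of their windows. Across these genes Spearman's rho between this share and the log2 fold change was 0.02. Exons of another gene on the opposite strand overlapped 18 of the 76 genes, and whether the counting used strands is not given in the sources used here.

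Compared per kilobase of coding length, the mean level in WT mice had a median of 242 CPM per kb over 75 genes, from 41.5 for Rps27l to 1742 for Rpl41. The next highest was Rplp1 at 678 CPM per kb. The value of Rpl41 is high partly by its scale, since its coding sequence has 75 bases in a transcript of 582 bases. Not divided by length, the mean over the 6 mice ranged from 10.2 CPM for Rps27l to 423 CPM for Rpl4, which lies along the exit tunnel. Rpl4 measured 439, 408 and 448 CPM in WT mice and 413, 404 and 425 CPM in Ube3am-/p+ mice, and Rpl3, of the large subunit's core, measured 346, 388 and 389 against 328, 400 and 391 CPM. Both overlapped between the genotypes.

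Fold changes were higher in short genes. Across the 75 genes, which share the same 6 libraries, Spearman's rho of the log2 fold change was -0.38 with coding length, 0.42 with GC content and -0.37 with mean CPM. In the 19 genes of shortest coding sequence (75 to 375 bases) the median log2 fold change was 0.35, and it was 0.37, 0.18 and 0.07 in the next 3 groups of 18 or 19 genes, the last of which spans 633 to 1257 bases. For the mice numbered 1 alone these medians were 0.08, 0.10, 0.06 and 0.06, and rho was -0.07 with coding length and -0.07 with GC content. The correction, fitted over all genes, used GC content and the length of the whole transcript, not the coding length. After it, rho was -0.13 with GC content and -0.36 with coding length. The medians of the 4 groups were then 0.15, 0.21, 0.01 and 0.00.

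**Figure D4:**
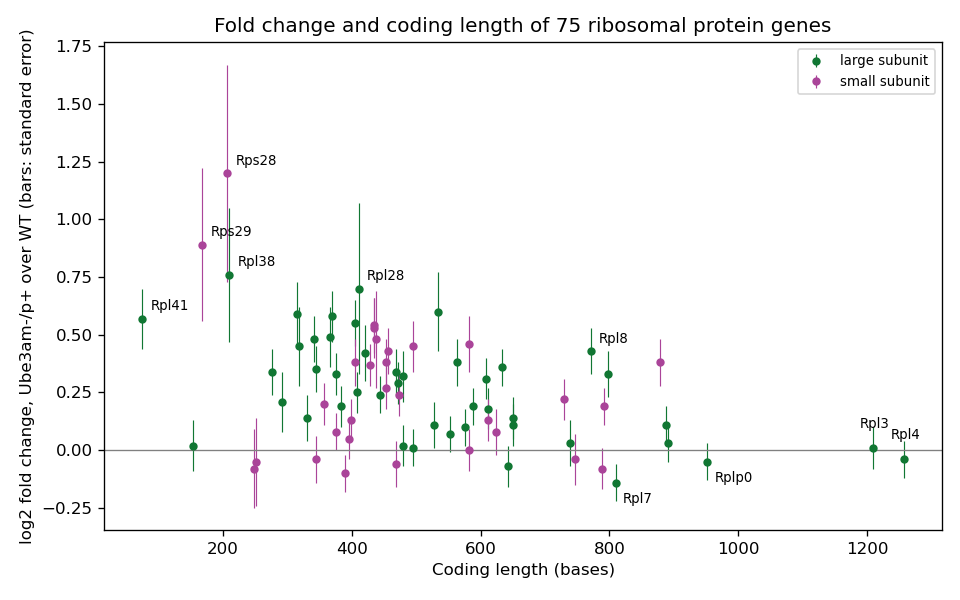
The log2 fold change of Ube3am-/p+ over WT mice (y axis, bars give the standard error) against coding length in bases (x axis) for 75 ribosomal protein genes, by subunit. Rps28, Rps29 and Rpl38 stand highest at coding lengths near 200 bases with wide error bars, and the longest genes, Rpl3 and Rpl4, lie close to 0.

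The size of the genotype difference depended on which libraries and which correction were used. For the mice numbered 1 alone the median difference over the 76 genes was 0.07 (50 above 0), where the median of all genes was 0.00. After the correction it was 0.13 (52 above 0), against -0.01 for all genes. In the large subunit it went from 0.25 to 0.07 and 0.14, and in the small subunit from 0.20 to 0.07 and 0.10. For the mitochondrial ribosomal protein genes the 3 medians were 0.15, 0.03 and 0.06. After the correction 5 ribosomal protein genes (6.58%) were called higher, where 0.331% of all genes were, and none was called lower (0.437% of all genes). At an unadjusted p with the same fold threshold, 13 were higher (17.1%, against 3.75% of all genes) and 2 lower (4.39% of all genes were).

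Only 2 of these 5 were among the 10 called without it, Rpl32 with a corrected log2 fold change of 0.38 (standard error 0.08) and Rps23 with 0.38 (standard error 0.07). Rpl22l1, at 0.60 (standard error 0.13), was named above as a paralog. Rps20, at 0.44 (standard error 0.10), and Rpl31, at 0.35 (standard error 0.08), were named after their values were seen. Uncorrected, Rps20 had 0.20 (standard error 0.09) and Rpl31 0.33 (standard error 0.09). The corrected value of Rps20 rests on the annotated transcript used, which has 3706 bases with 357 of them coding. Of the other genes called without the correction, Rpl13 had 0.07, Rps10 0.10, Rpl8 0.12, Rplp1 0.14, Rps18 0.17, Rps19 0.24, Rpl41 0.28 and Rpl35 0.32, all above 0 and below their uncorrected values.

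**Figure D5:**
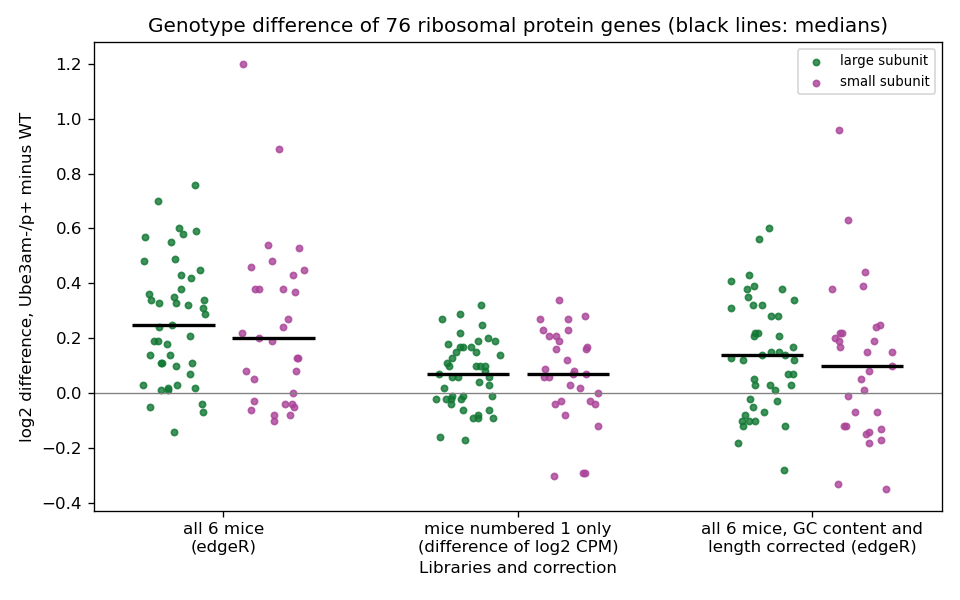
The log2 difference between Ube3am-/p+ and WT mice (y axis) of each of 76 ribosomal protein genes, from all 6 mice, from the mice numbered 1 alone and from all 6 mice after the correction for GC content and length (x axis), by subunit with medians as black lines. The medians are 0.25 and 0.20 for the large and small subunit with all mice, 0.07 and 0.07 with the mice numbered 1, and 0.14 and 0.10 after the correction.

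The sequence around the transcription start was looked at because the TOP tract and shared promoter motifs are features of this family that the symbols did not use. RefSeq promoter windows on GRCm38.p6, from 250 bases before to 50 after the start, matched 63 of the 84 genes. The sequences below run 5′ to 3′ from 40 bases before the start through the first 20 transcribed bases, with the longest run of pyrimidines near the start in capitals. Rpl35, Rps10 and Rpl13 are shown as genes called higher with a long run, Rpl41 as one called higher without, and Rps15a and Rplp0 as the genes whose Ube3am-/p+ mice lay below the WT mice.
Rpl35: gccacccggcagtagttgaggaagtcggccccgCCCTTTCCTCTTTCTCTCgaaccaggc
Rps10: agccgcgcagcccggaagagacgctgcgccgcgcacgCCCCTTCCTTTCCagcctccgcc
Rpl13: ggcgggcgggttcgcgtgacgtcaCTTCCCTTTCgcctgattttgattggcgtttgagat
Rpl41: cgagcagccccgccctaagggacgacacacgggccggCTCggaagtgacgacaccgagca
Rps15a: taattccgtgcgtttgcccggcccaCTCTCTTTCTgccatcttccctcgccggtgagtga
Rplp0: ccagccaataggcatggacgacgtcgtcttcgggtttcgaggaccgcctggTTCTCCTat
They lie, in this order, with Rpl35 at chr2:39005112-39005171 on the minus strand, Rps10 at chr17:27635225-27635284 on the minus strand, Rpl13 at chr8:123102310-123102369 on the plus strand, Rpl41 at chr10:128549149-128549208 on the minus strand, Rps15a at chr7:118116128-118116187 on the minus strand and Rplp0 at chr5:115559427-115559486 on the plus strand. The runs in capitals have 18, 13, 10, 3, 10 and 7 letters. In Rpl35 and Rps10 the run spans the annotated start, and in Rpl13 and Rps15a it ends before it.

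A run of at least 8 pyrimidines within 25 bases of the start, read on the sense strand, was found in 34 of the 63 genes (54%) and in 22.3% of the 27025 symbols with a window. The motif CCGGAA, the core bound by ETS factors, was found on either strand in 34 of the 63 genes (54%) and in 16.7% of all symbols. The motif AAGATGG, the core bound by YY1, was found in 10 (15.9%) and in 7.28%, and the end of the first motif can overlap the start of the second. A match is a match of letters and not a measured site. Among the 56 kept genes with a window, the median log2 fold change was 0.21 in the 30 with a pyrimidine run and 0.23 in the 26 without. It was 0.20 in the 30 with CCGGAA and 0.32 in the 26 without, and 0.14 in the 9 with AAGATGG and 0.25 in the 47 without.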

How the data were processed

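Hippocampal RNA of 3 WT and 3 Ube3am-/p+ mice was sequenced with standard Illumina libraries. The authors deposited raw counts per gene symbol for each library, without normalization. The submitters' processing notes name STAR 2.7.4a, HTSeq and mm10, and the annotation and strand setting are not given in the sources used here. Lines for reads on no gene stayed out of library sizes.

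Counts were filtered (filterByExpr), scaled (TMM) and tested with genotype as the only factor by the quasi-likelihood test of edgeR 4.0.16 in R 4.3.3, two-sided, with adjustment over 14445 genes. CPM used total gene counts. The 14201 genes with GC content and length in GENCODE M21 (GRCm38) were also fitted with natural splines of 5 degrees of freedom each, per library. Alternatives were DESeq2 1.42.0, other scalings and filters, a replicate block and leaving out each mouse. The steps were tested on simulated data. The members and lists were chosen with earlier results of these data known. Named were the called genes, the 6 highest and 6 lowest fold changes, the 3 highest and 3 lowest levels, paralogs, stalk and 5S genes, the proteins outside the pattern, Rack1, Ube3a, and genes whose groups did not overlap against the median. P-values set the genotype difference against the spread between libraries of the same genotype, estimated for each gene with help from all genes. They cover these 6 libraries only. Counts give no protein sequence or amount. A few genes are not reported here by name.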

Additional observations from a re-analysis of the deposited data

How the results depend on the processing

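Calls over all genes are given here in brackets and count both directions. Against 10 ribosomal protein genes called higher (290 calls over all genes), DESeq2 called 28 (934). The edgeR test without a filter on low counts called 26 (1176), and an unadjusted p with the same fold threshold gave 33 (2832). The shares higher were 13.2%, 36.8%, 31.7% (of 82 genes) and 43.4%. Of all genes tested in each setting, 1.02%, 4.58%, 3.18% and 9.78% were higher. The other scalings and the filter of at least 10 counts in every library gave 9 to 13 (272 to 399). These were 11.8% to 17.1%, against 0.865% to 1.36% of all genes higher. With the replicate block 0 were called (0 over all genes). At an unadjusted p with the same fold threshold the block gave 30 (2309), which was 39.5%, against 7.96% of all genes higher. With GC content and length corrected 5 were called (109), which was 6.58%, against 0.331% of all genes higher. With both there were 3 (50), which was 3.95%, against 0.183%. Leaving out each mouse in turn gave 0 to 32 (0 to 2582), with 27 to 29 at that unadjusted p where it gave 0 (1901 to 2093). These 27 to 29 were 35.5% to 38.2%, against 6.66% to 7.14% of all genes higher. Leaving out both mice numbered 1, a setting chosen after seeing the data, gave 39 (4138), which was 51.3%, against 13.6% of all genes higher. The median log2 fold change was 0.13 after the correction, with or without the replicate block, 0.07 in the mice numbered 1 alone, and 0.20 to 0.30 with each mouse left out, where Ube3am-/p+ mouse 1 gave the highest value. It was 0.21 to 0.24 under the other scalings and filters and with the block alone. The deviations of same-numbered mice from the mean of their genotype correlated at -0.285, -0.177 and -0.311. Where the mice numbered 1 are alike and lie between the others, they deviate from their genotype means in opposite directions. These correlations therefore cannot show whether the replicate numbers pair the mice.

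The small difference in the log2 ratio of large to small subunit changed sign to 0.0175 as a mean over genes, to 0.0196 without the 5 members of highest CPM and to 0.00254 after the correction, and ran from -0.0214 to 0.0191 with each mouse left out. The difference in the share of Rps4l ran from -0.876 to 1.29 percentage points, while those of Rpl22l1, Rpl7l1 and Rpl36al kept their sign under all settings tried. These were the log2 ratio of the paralogs, the replicate block and each mouse left out. The correction for GC content and length was not applied to the shares. Over 40 named genes and 640 alternatives, no fold change called with all mice changed sign, and 524 stayed on their side of the threshold, 74 lost a call and 42 gained one. The sign differed between settings in 10 of the 40, none of them called with all mice (Rps15a, Rps21, Rps27a, Rpl3, Rps27l, Rps4l, Rpl39, Rpl5, Fau and Rack1). Fau was called in 2 settings (0.41 without Ube3am-/p+ mouse 1 and 0.40 without both mice numbered 1) and stood at -0.11 after the correction. Depth was 7293272 counts or more per library, and 3 mice against 3 cannot give an exact permutation p below 0.1. Why the mice numbered 1 differ from the others was not tested.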
